A study of Homo sapiens with 6 samples.

Results

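The aminoacyl-tRNA synthetases were followed in HMLE, an established line of immortalised breast epithelial cells, as a family of 35 named genes with 19 cytosolic and 16 mitochondrial enzymes. A gene was read where a probe set of the array carried its symbol and no other, older symbols included, and 32 of the 35 were read, among 19775 genes in all. MARS1, QARS1 and TARS2 were matched only to probe sets that also name other genes and are not analysed here. GARS1 and KARS1, which each supply both compartments from a single gene, were counted as cytosolic. All 17 cytosolic and 15 mitochondrial enzymes read lay above the floor for low signal on all 6 arrays, so no member entered through the group in which it was high.

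The study had 6 groups with 1 Affymetrix U133 Plus array each. The control line carried the pBabe-shGFP retrovirus, whose hairpin targets GFP, and the Twist line the pBabe-Twist retrovirus, which supplies an inducer of the epithelial-mesenchymal transition. Each line was given DMSO as solvent, or the compound with the code name Cmp302 at 5 µM or at 10 µM. Titles and treatment protocol state these doses for 6 h, but 2 µM over 4 h and 8 h stands in the other labels of the same samples, so the step between the levels may be one of dose or of time. The arrays are named by their titles below. Nothing in the labels says that the arrays of a line came from separate cultures, each line is a single infected population, and a difference between lines cannot be told apart from other differences between those populations. A difference between a single pair of arrays has no replicates behind it, and so few arrays limit the precision of every value.

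Each synthetase joins an amino acid to the tRNAs that carry it, which is the step that lets a ribosome read a codon as that amino acid. Cells keep a set for the cytosol and a separate, nuclear-encoded set that is imported into mitochondria and serves the proteins made there. When charged cytosolic tRNA runs short, the kinase GCN2 phosphorylates the initiation factor eIF2, overall initiation slows, and the transcription factor ATF4 is made. ATF4 is known to act on genes for amino acid synthesis, amino acid transport and many of the cytosolic synthetases through composite C/EBP-ATF elements.

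The core of that element, TGATGNAA on either strand, was searched in the RefSeq promoters of the members, from 250 bases before to 50 bases after each annotated start in GRCh38.p14. It was present in 7 of the 16 cytosolic genes with a promoter entry and in 1 of the 14 mitochondrial genes, against 4.46% of 27305 genes with an entry and 3.62% of all 35116 promoters of the same length. The windows below show the match and its surroundings in members that were read, on the strand of the gene from 5′ to 3′, with the match in capitals. They are shown because 3 of these genes (AARS1, CARS1 and GARS1) were higher past 2-fold in the treated Twist line and 3 (IARS1, NARS1 and TARS1) were not.
AARS1, chr16:70289682-70289711, minus strand: tcccaccttttctcgcagTTGCATCAgcca
CARS1, chr11:3057414-3057443, minus strand: cgacttccggggcggcggTTGCATCAgatt
GARS1, chr7:30594827-30594856, plus strand: gcgtcgtttacgcggcgaTTTCATCAtgct
IARS1, chr9:92293699-92293728, minus strand: tcccgcattttcagcgcgTTGCATCAcctc
NARS1, chr18:57621811-57621840, minus strand: cctcagatctacgctctcTGATGCAAcgcc
TARS1, chr5:33440949-33440978, plus strand: ggttagggcgcctttcgaTTGCATCAgctg
YARS2, chr12:32756083-32756112, minus strand: taagcagatccacactgcTGATGGAAaaat
The core reads TTGCATCA in 4 of the 6 cytosolic windows shown, TTTCATCA in GARS1 and, on the other strand, TGATGCAA in NARS1. MARS1, which was not read, also held a match. Promoter entries were not matched for LARS1, VARS1, YARS1, AARS2 and VARS2. A match is a stretch of letters in a window and was not tested as a binding site.

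In the Twist line, signals of 5 cytosolic enzymes were higher past 2-fold with Cmp302 at 5 µM and of 6 at 10 µM, and no cytosolic enzyme was lower past 2-fold at either level, whereas 5.01% of all genes were at 5 µM and 8.46% at 10 µM. The 5 were AARS1, WARS1, GARS1, EPRS1 and SARS1, the enzymes for alanine, tryptophan, glycine, glutamate with proline, and serine, and CARS1, for cysteine, joined them at 10 µM. Among all genes measured, the share higher past 2-fold was 4.26% at 5 µM, 8.04% at 10 µM and 4.01% at both. No mitochondrial enzyme was higher past 2-fold at either level, and MARS2 was lower at 10 µM. At 5 µM and 10 µM the median change over the 17 cytosolic enzymes was 0.59 and 0.65 log2 units, over the 15 mitochondrial enzymes 0.17 and 0.28, and over all genes 0.00 and -0.01. Both levels are set against the same DMSO array, so the comparisons are not independent of each other.

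**Figure D1:**
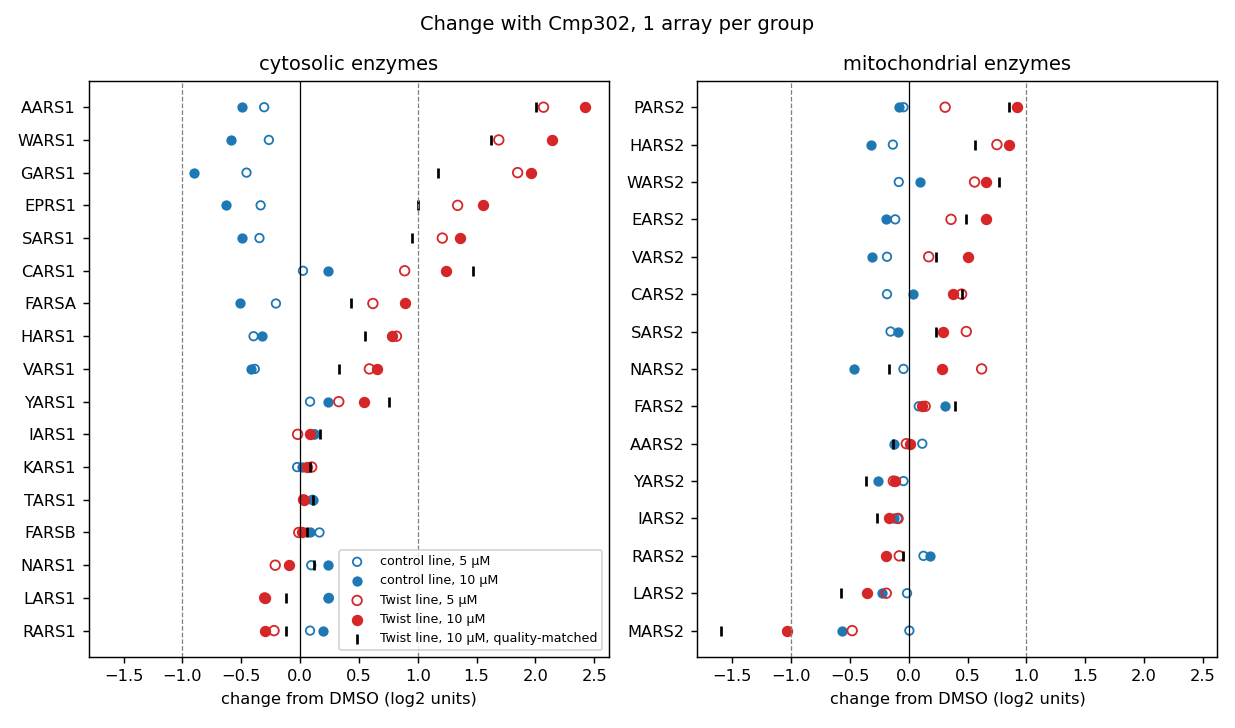
Change in log2 signal from the DMSO array of the same line for each cytosolic enzyme (left) and mitochondrial enzyme (right), in the control line (blue) and the Twist line (red) at 5 µM (open) and 10 µM (filled), 1 array per group, with dashed lines at 2-fold and black ticks for the Twist line at 10 µM after matching for RNA quality. The 6 cytosolic enzymes at the top left pass 2-fold in the Twist line at 10 µM, and no enzyme passes it in the control line.

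AARS1, the alanine enzyme, had the widest change in the family on the brightest probe sets; by the median over probe sets CARS1 was wider, at 2.75 log2 units against 2.42 at 10 µM. Its log2 signal was 9.59 with DMSO, 11.66 at 5 µM and 12.01 at 10 µM in the Twist line, and 10.06, 9.75 and 9.56 on the control-line arrays in the same order. Both treated Twist arrays lay above all 4 others, 4.20-fold and 5.36-fold over the Twist DMSO array. WARS1, the cytosolic tryptophan enzyme and also an interferon-gamma target, read 9.69, 11.38 and 11.83 in the Twist line and 10.84, 10.57 and 10.25 in the control line. Its changes in the Twist line were 3.22-fold and 4.42-fold, and its lowest array was the Twist DMSO array.

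GARS1, which charges glycine in both compartments, read 11.59, 13.44 and 13.55 in the Twist line against 12.93, 12.47 and 12.02 in the control line. EPRS1, the fused glutamate and proline enzyme, read 10.60, 11.94 and 12.15 against 11.70, 11.36 and 11.06. SARS1, the serine enzyme, read 11.33, 12.54 and 12.69 against 12.45, 12.10 and 11.95. On the brightest probe set of each of these 3 genes the Twist DMSO array was the lowest of the 6 and the treated Twist arrays were the highest. The control-line signal there was lower at each level than at the one before. A further probe set of SARS1 differed, with 11.56, 12.19 and 12.27 in the Twist line against 11.39, 11.54 and 11.67 in the control line. Its changes in the Twist line, 0.63 and 0.71 log2 units, stayed under 2-fold. CARS1, the cysteine enzyme, had another pattern on its brightest probe set, with 11.23, 12.12 and 12.47 in the Twist line and 11.02, 11.04 and 11.25 in the control line. Here the 4 arrays other than the treated Twist arrays lay close together. On its further probe sets above the floor throughout, the Twist DMSO array was the lowest, at 8.38 and 6.36. The control-line DMSO array read 8.77 and 7.43 on these.

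**Figure D2:**
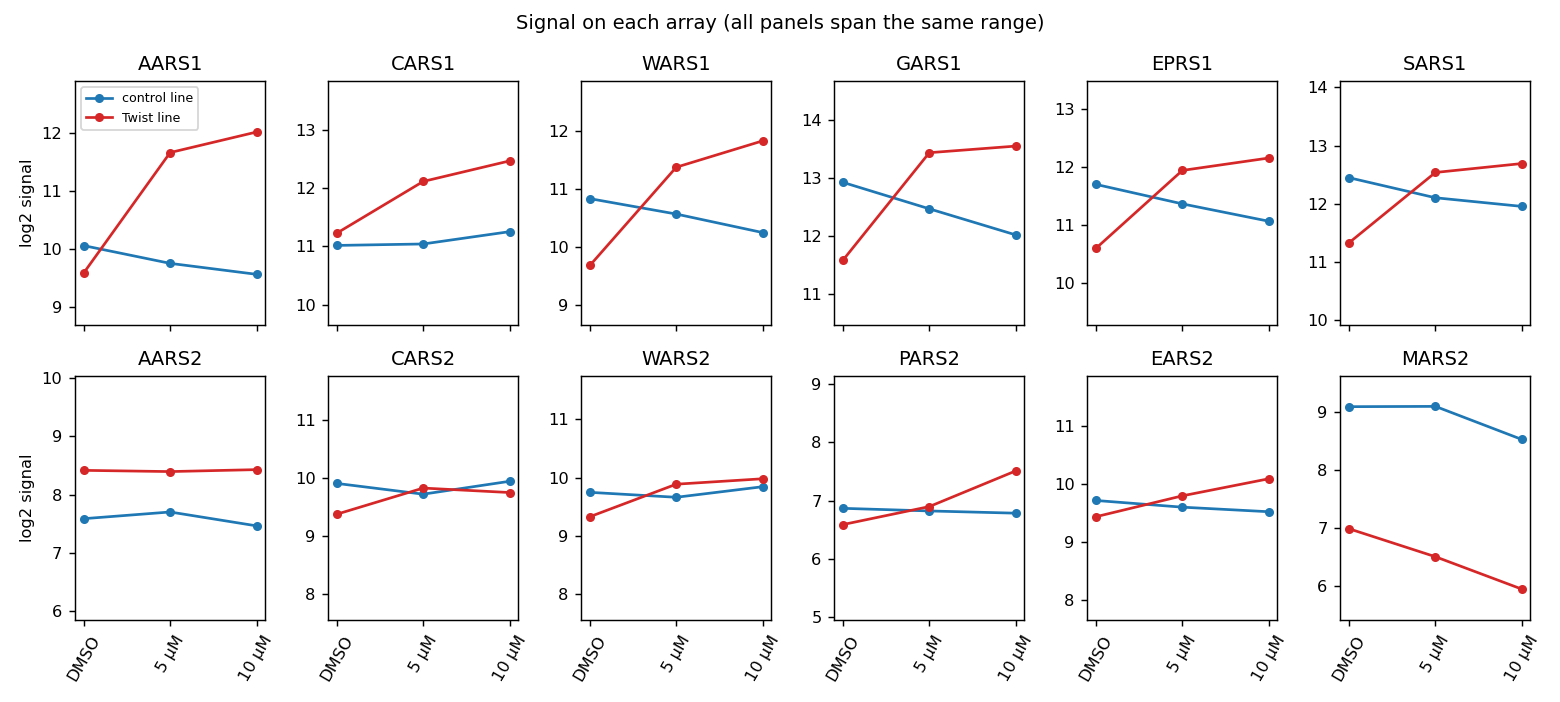
Log2 signal on each of the 6 arrays for 6 cytosolic enzymes (top) and 6 mitochondrial enzymes (bottom), with DMSO, 5 µM and 10 µM on the horizontal axis, the control line in blue, the Twist line in red and 1 array per point; every panel spans the same range. The cytosolic Twist-line signals are higher at each level than at the one before, whereas MARS2 is lower in the Twist line on every array.

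Of the other 11 cytosolic enzymes, 4 had intermediate changes in the Twist line. FARSA, the catalytic subunit of the phenylalanine enzyme, was 0.62 and 0.89 log2 units over DMSO at 5 µM and 10 µM, HARS1 (histidine) 0.82 and 0.78, VARS1 (valine) 0.59 and 0.65, and YARS1 (tyrosine) 0.33 and 0.54. After the matching for RNA quality given below, FARSA stood at 0.08 and 0.43 and VARS1 at 0.21 and 0.33. HARS1 then stood at 0.55 and 0.55, and YARS1 was higher than before matching, at 0.58 and 0.76. Before matching, the other probe set of FARSA read 0.33 and 0.29, and that of YARS1, which had low signal, 0.76 and 1.16. For FARSA, HARS1 and VARS1 both treated Twist arrays lay above all 4 other arrays. The other 7 lay near their DMSO signal, namely FARSB, the partner subunit of FARSA, at -0.01 and 0.01, IARS1 (isoleucine) at -0.02 and 0.08, KARS1 (lysine) at 0.10 and 0.06, TARS1 (threonine) at 0.03 and 0.03, NARS1 (asparagine) at -0.21 and -0.10, RARS1 (arginine) at -0.22 and -0.30, and LARS1 (leucine) at -0.30 and -0.30. In all, 9 of the 17 cytosolic enzymes had both treated Twist arrays above every other array, against 23.2% of all genes. The highest signal of any synthetase was that of GARS1 at 13.55, and the brightest probe set of each array lay between 14.60 and 14.80.

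The mitochondrial enzymes lay on both sides of their DMSO signal. PARS2, the proline enzyme, read 6.59, 6.90 and 7.51 in the Twist line and 6.87, 6.82 and 6.78 in the control line, so that only its 10 µM array stood well above the rest. HARS2 (histidine) read 9.66, 10.41 and 10.51 against 9.58, 9.44 and 9.25, with both treated Twist arrays above the others. EARS2 (glutamate) read 9.44, 9.80 and 10.09 against 9.72, 9.60 and 9.52. WARS2 (tryptophan) read 9.33, 9.89 and 9.98 against 9.75, 9.66 and 9.84, and its groups nearly met. These 4 were the mitochondrial enzymes with both treated Twist arrays above every other array, and IARS2, MARS2 and YARS2 had both below every other array, against 21.9% of all genes. The remaining Twist-line changes at 10 µM ran from -0.36 in LARS2 (leucine) to 0.50 in VARS2 (valine).

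MARS2, the mitochondrial methionine enzyme, read 6.99, 6.51 and 5.95 in the Twist line and 9.09, 9.09 and 8.52 in the control line. Every Twist-line array lay below every control-line array, and the 10 µM array was the lowest of its line in both. Against DMSO the Twist line stood at -0.48 and -1.04 log2 units at the 2 levels. VARS2 read 7.37, 7.54 and 7.87 in the Twist line and 9.15, 8.96 and 8.83 in the control line, again with no overlap between the lines. IARS2 was also lower on every Twist-line array, and AARS2, HARS2 and LARS1 were higher on every one. Such separation was not counted over all genes, of which limma called 13.7% higher and 14.9% lower between the lines.

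The trend over the levels, coded 0, 1 and 2, was tested with limma over 12478 genes, with 1 spread for both lines and 2 residual degrees of freedom. In the Twist line 7 of 17 cytosolic enzymes rose (AARS1, CARS1, EPRS1, FARSA, GARS1, SARS1 and WARS1), 1 of 15 mitochondrial enzymes rose (PARS2) and 1 fell (MARS2), against 10.8% of all genes that rose and 11.4% that fell. The slope per level was 1.21 ± 0.22 log2 units (SE) for AARS1, with a limma adjusted p of 0.025, and 1.07 ± 0.17 for WARS1, with 0.019. It was 0.62 ± 0.11 for CARS1 (limma adjusted p = 0.023) and 0.46 ± 0.10 for PARS2 (limma adjusted p = 0.034). MARS2 fell by 0.52 ± 0.12 log2 units per level, with a limma adjusted p of 0.037. By the median over probe sets the calls of EPRS1 and FARSA were lost (limma adjusted p = 0.053 and 0.067). That of FARSA was also lost where probe sets with the suffix _x_at or _s_at were passed over (limma adjusted p = 0.34). EPRS1 and GARS1 have only such probe sets, so that setting left their signals unchanged. With both Cmp302 levels coded alike PARS2 and MARS2 were not called (limma adjusted p = 0.16 and 0.15). These calls rest on few degrees of freedom, and leaving out any 1 array left 1 residual degree of freedom. Leaving out an array other than the Twist array at 5 µM left no called gene on the whole array. In those fits 3 to 14 members had an unadjusted p under 0.05. Without the Twist array at 5 µM, 8 cytosolic enzymes were called risen, against 11.8% of all genes, and MARS2 was not called. There the Twist slope passes through the 2 arrays left, so the spread came from the control line alone. With no filter on low signals no member was called and 17 had an unadjusted p under 0.05.

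In the control line no synthetase was past 2-fold at either level on its brightest probe set, and 1 further probe set, of KARS1, was at -1.06 at 10 µM. There 0.0585% of all genes were higher and 0.0668% lower at 5 µM, and 0.2% and 0.259% at 10 µM. The median of the cytosolic enzymes was -0.02 log2 units at the lower level and 0.02 at the higher, and that of the mitochondrial enzymes -0.04 and -0.12. The widest control-line change on a brightest probe set was that of GARS1, at -0.90 at 10 µM. With limma no member had a called control-line trend, 1 member had an unadjusted p under 0.05, and no gene on the array was called. The difference of the trends between the lines was 1.46 ± 0.32 log2 units per level for AARS1 (limma adjusted p = 0.054) and 1.36 ± 0.24 for WARS1 (limma adjusted p = 0.050). No member passed that test, 13 had an unadjusted p under 0.05, and 0.745% of all genes were called higher and 0.793% lower. With both Cmp302 levels coded alike limma called 10 of the 32 members, against 26.5% of all genes in either direction. Without the Twist array at 5 µM, where the spread again came from the control line alone, limma called 7, against 17.6% of all genes. Both shares of members lie near those of all genes.

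The signals of several enzymes ran with a measure of RNA quality. For GAPDH and ACTB, the signal of the 3′ probe sets minus that of the middle ones, which is larger where RNA is more degraded or the labelling shorter, was 0.28 log2 units on the control-line DMSO array, 0.45 at 5 µM and 0.84 at 10 µM. On the Twist arrays this contrast was 0.96, 0.36 and 0.45 in the same order. The Twist DMSO array thus had the highest contrast, and the next highest was the control-line array at 10 µM. The lowest signal of the 6 arrays was on the Twist DMSO array for 9 of 17 cytosolic and 7 of 15 mitochondrial enzymes, against 27.3% of all genes. Over both steps of the control line, where the contrast climbed, signals of 7 cytosolic and 8 mitochondrial enzymes were lower each time, against 25.9% of all genes. Above DMSO at both levels in the Twist line and below it at both in the control line were 8 cytosolic and 6 mitochondrial enzymes, against 24.3% of all genes.

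**Figure D3:**
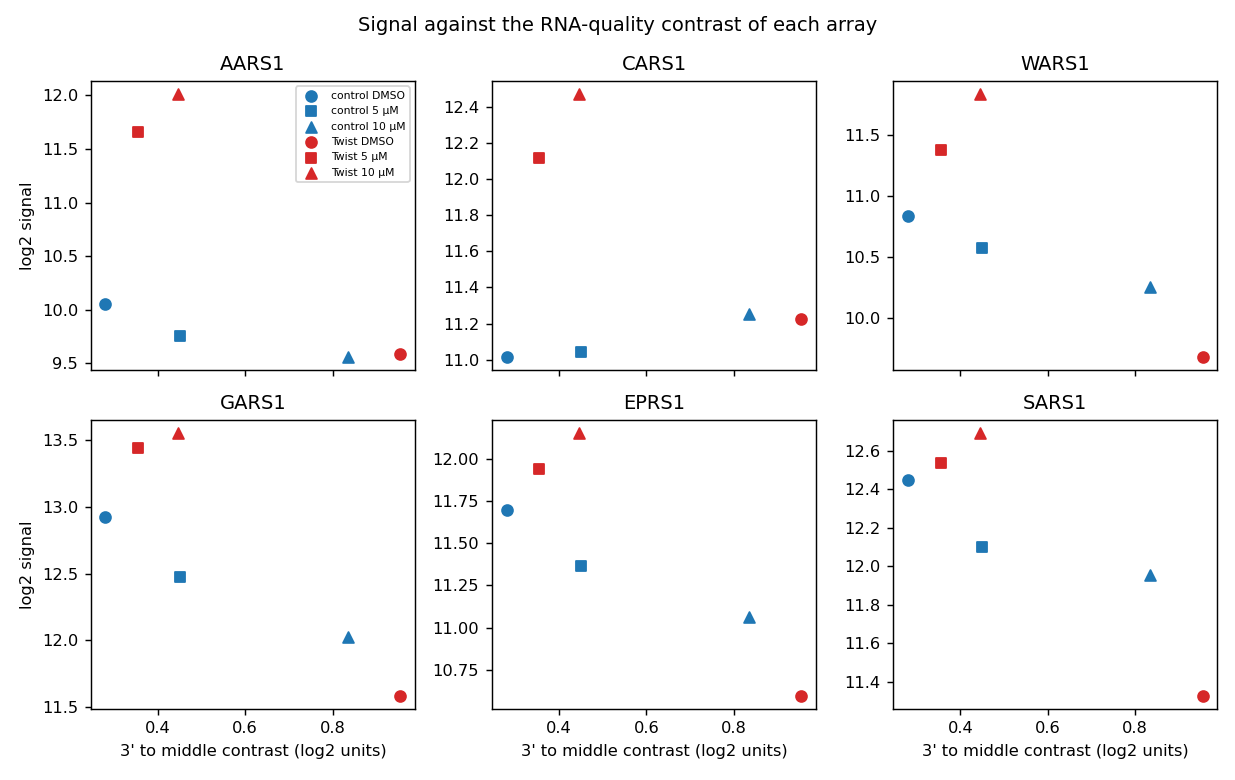
Log2 signal of the 6 cytosolic enzymes past 2-fold in the Twist line at 10 µM (vertical axes, each with its own range) against the 3′ to middle contrast of GAPDH and ACTB (horizontal axes, log2 units), 1 point per array, the control line in blue and the Twist line in red. In WARS1, GARS1, EPRS1 and SARS1 the Twist DMSO array, at a contrast of 0.96, is the lowest point, and the treated Twist arrays are the highest in all 6 panels.

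When each gene's slope on that contrast over the 3 control-line arrays was used to match the Twist arrays for quality, 3 cytosolic enzymes were higher past 2-fold at 5 µM and 5 at 10 µM, against 2.79% and 5.81% of all genes matched in the same way. The quality-matched change at 10 µM was 2.00 log2 units for AARS1, 1.63 for WARS1, 1.47 for CARS1, 1.17 for GARS1, 1.00 for EPRS1 and 0.95 for SARS1. Among mitochondrial enzymes it was 0.85 for PARS2 and -1.60 for MARS2, and it turned the sign of NARS2 (asparagine) from 0.28 to -0.17. The cytosolic median was then 0.21 at 5 µM and 0.43 at 10 µM, and the mitochondrial median 0.09 and 0.23. In the control line the contrast climbed with the Cmp302 level, so the slope holds any change with Cmp302 there and the 2 cannot be told apart.

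A comparison that does not use the Twist DMSO array set each treated Twist array against the highest control-line array. By it AARS1 was higher by 1.60 log2 units at 5 µM and 1.95 at 10 µM, and CARS1 by 0.86 and 1.22. WARS1 was at 0.54 and 0.99, GARS1 at 0.51 and 0.62, EPRS1 at 0.24 and 0.45, and SARS1 at 0.09 and 0.24. Past 2-fold were thus 1 cytosolic enzyme at 5 µM and 2 at 10 µM, against 9.92% and 11.5% of all genes. This baseline was chosen after the data were seen.

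Between the lines under DMSO, 6 synthetases were lower in the Twist line past 2-fold and none was higher, against 13.5% and 11.9% of all genes. They were EPRS1 at -1.10 log2 units, GARS1 at -1.34, SARS1 at -1.12, WARS1 at -1.15, MARS2 at -2.10 and VARS2 at -1.78. Each of these differences, in both classes, involves the Twist DMSO array with the highest quality contrast, and the part of the contrast in them was not tested. At 5 µM AARS1 and CARS1 were higher and MARS2 and VARS2 lower, against 12.1% and 12.6% of all genes. At 10 µM AARS1, CARS1, EPRS1, GARS1, WARS1 and HARS2 were higher and MARS2 lower, against 14.8% and 14.1%.

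Over the 3 pairs of arrays with the same treatment, limma called 4 mitochondrial enzymes and no cytosolic enzyme between the lines, with 6 of all members at an unadjusted p under 0.05, against 13.7% of all genes called higher and 14.9% lower. The spread in this test is that of the line difference across treatments. It was wide where the lines changed differently with Cmp302, with an SE of 0.58 for AARS1 and 0.56 for GARS1. The lack of cytosolic calls therefore does not show like signals in the lines. MARS2 was lower in the Twist line by an estimate of -2.42 ± 0.22 log2 units (SE; limma adjusted p = 0.00086) and VARS2 by -1.39 ± 0.25 (limma adjusted p = 0.011). IARS2, the mitochondrial isoleucine enzyme, was lower at -0.62 ± 0.17 (limma adjusted p = 0.046). AARS2, the mitochondrial alanine enzyme, was higher at 0.83 ± 0.20 (limma adjusted p = 0.033), with 8.42, 8.40 and 8.43 in the Twist line against 7.59, 7.70 and 7.46. Without the pair at 5 µM only MARS2 was called lower and AARS2 was not called. The calls of IARS2 and AARS2 were also lost without the pair at 10 µM, that of IARS2 under quantile normalization and a higher floor, and those of VARS2 and AARS2 with no filter. Without the DMSO pair, which leaves only treated arrays, 11 of the 32 members were called higher, of which 9 were cytosolic enzymes, against 28.5% of all genes. EPRS1, GARS1 and WARS1 thus went from lower in the Twist line past 2-fold under DMSO to higher past 2-fold at 10 µM, while MARS2 was lower at all treatments. The quality contrast of these arrays was 0.96 in the Twist line against 0.28 in the control line under DMSO, and 0.45 against 0.84 at 10 µM. Its part in this crossing was not tested. Against the highest control-line array EPRS1, GARS1 and WARS1 stood at 0.45, 0.62 and 0.99 at 10 µM, none past 2-fold.

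Enzymes for the same amino acid were set side by side in 15 pairs, in which EPRS1 and FARS2 each appear in 2. In the Twist line the signed change was higher for the cytosolic enzyme in 11 pairs and for the mitochondrial enzyme in 4, at each level, with a median difference of 0.44 log2 units at 5 µM and 0.63 at 10 µM. The difference passed 2-fold in 3 pairs at each level. It was widest for alanine, at 2.09 and 2.41 log2 units, with AARS2 at -0.02 and 0.01. It was 1.13 and 1.49 for tryptophan. In the control line the median difference was -0.18 and -0.10, and no pair passed 2-fold.

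**Figure D4:**
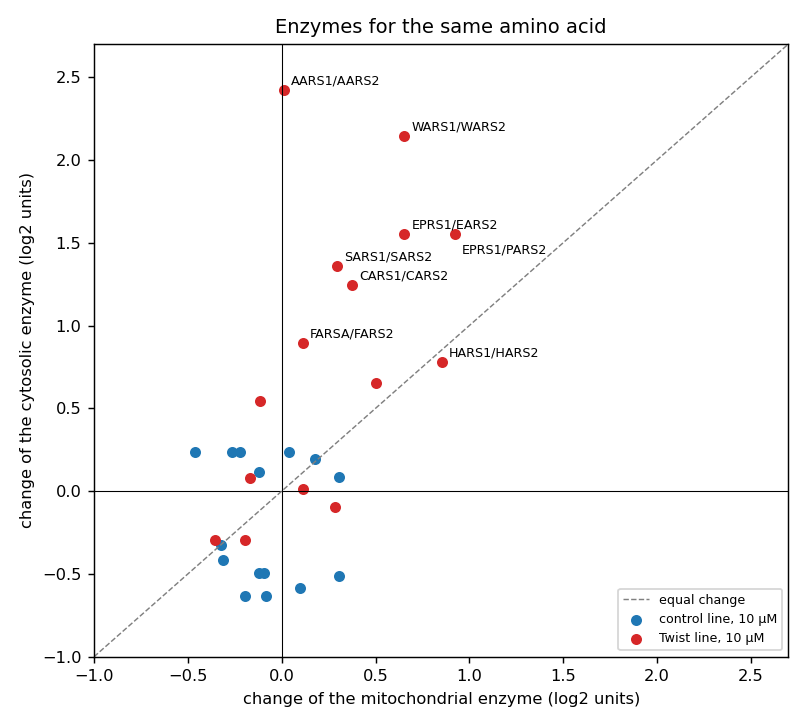
Change in log2 signal from DMSO to 10 µM of the cytosolic enzyme (vertical axis) against that of the mitochondrial enzyme for the same amino acid (horizontal axis), for 15 pairs in the control line (blue) and the Twist line (red), 1 array per group, with the dashed line at equal change. Most Twist-line pairs lie above the line, AARS1/AARS2 farthest at a difference of 2.41, while HARS1/HARS2 lies beside it.

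The histidine pair had changes of like size against the Twist DMSO array. In the Twist line HARS1 was 0.82 and 0.78 log2 units over DMSO and HARS2 0.75 and 0.85, a difference of 0.07 at 5 µM and -0.07 at 10 µM. After matching for quality they stood at 0.55 and 0.56 at 10 µM. Against the highest control-line array HARS1 was at 0.08 and 0.04, but HARS2 at 0.83 and 0.93. Under DMSO the Twist line differed from the control line by -0.74 in HARS1 and 0.08 in HARS2. Common regulation of the pair was not tested. The pair lies head to head on chromosome 5, with 84 bases between the RefSeq starts, and that stretch is shown because both genes are read outwards from it.
HARS1 and HARS2, chr5:140691371-140691454, plus strand: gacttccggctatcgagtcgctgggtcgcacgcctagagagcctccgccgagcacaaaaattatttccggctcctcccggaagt
It is given in lower case throughout, since it held 0 matches to TGATGNAA, and its GC content was 59.5%.

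Within the cytosolic set, 5 enzymes of the multi-synthetase complex were read, an assembly that holds several synthetases on AIMP scaffolds. Of these EPRS1 was higher past 2-fold in the Twist line, and their median changes at the 2 levels were -0.02 and 0.06 log2 units. These are values of the brightest probe sets, and KARS1 and LARS1 each had a further probe set past 2-fold, so 3 of the 5 passed on some probe set. Outside the complex AARS1, CARS1, GARS1, SARS1, WARS1 and YARS1 passed on some probe set at 10 µM, and among all genes 13.9% did. Among the 12 cytosolic enzymes outside the complex, 4 were higher on the brightest probe set at 5 µM and 5 at 10 µM, with medians of 0.72 and 0.84. Beside these counts and those that follow, 4.26% of all genes were higher past 2-fold at 5 µM and 8.04% at 10 µM. Synthetases also fall into 2 structural classes by their catalytic fold. Class I enzymes were higher in 3 of 8 at 10 µM with a median of 0.60, and class II enzymes in 3 of 9 with a median of 0.78. Of the 6 cytosolic enzymes read that hold TGATGNAA in the promoter window, 3 were higher at 10 µM with a median of 0.66, and of the 8 with an entry and no match, 3 were higher (EPRS1, SARS1 and WARS1) with a median of 0.84.

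Probe sets of the same gene often had different changes. Of the 67 probe sets of the 32 genes, 31 cytosolic and 23 mitochondrial ones lay above the floor on all arrays. Counted on their own, a count chosen after the data were seen, 14 cytosolic probe sets from 9 genes were higher past 2-fold at 10 µM and 2 mitochondrial ones, in FARS2 and RARS2. Among all such probe sets 8.83% were higher past 2-fold, and among all genes 13.9% had at least 1 that was. After matching for quality the counts were 10 and 1, against 6.66% of all such probe sets. CARS1 was higher past 2-fold on all 3 of its probe sets that lay above the floor throughout, and the other 2 had wider changes at 10 µM than the brightest, at 3.09 and 2.41 log2 units.

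KARS1 was read by its brightest probe set at a change of 0.06 at 10 µM, while its other probe set read 12.68, 11.94 and 11.61 on the control-line arrays and, in the Twist line, 10.93, 12.41 and 12.48. That probe set was lowest on the 2 arrays with the highest quality contrast, and its change of 1.55 at 10 µM was 0.67 after matching for quality. In LARS1 a further probe set was at 1.25, or 0.69 after matching, against -0.30 on the brightest. In YARS1 the other probe set was at 1.16, or 1.47 after matching, against 0.54, and its signals were low, from 3.79 to 5.01. In FARS2, the mitochondrial phenylalanine enzyme, another probe set was at 1.12, or 1.02 after matching, against 0.11. In RARS2, for mitochondrial arginine, it was 1.13, or 0.67 after matching, against -0.20. Of the genes with 2 or more such probe sets, 4 of 10 cytosolic and 2 of 7 mitochondrial ones had probe sets on either side of the 2-fold threshold, so a count per gene depends on the probe set that stands for it.

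**Figure D5:**
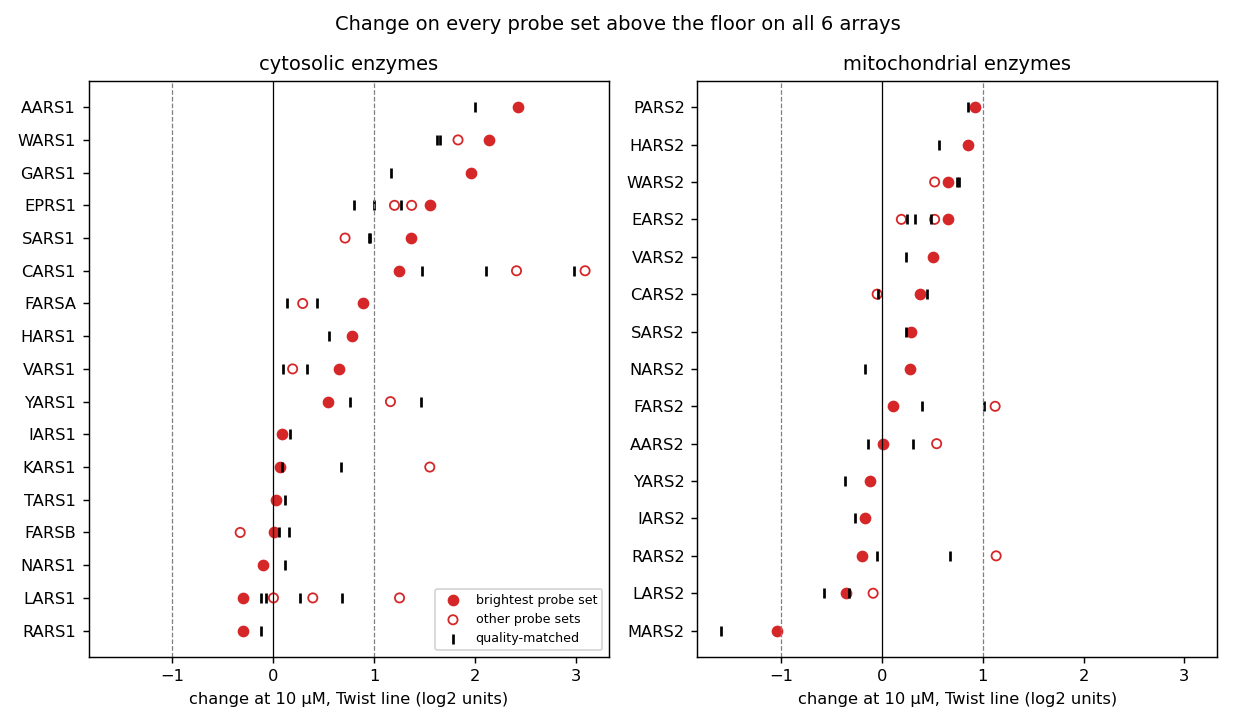
Change in log2 signal from DMSO to 10 µM in the Twist line for every probe set above the floor on all 6 arrays, with cytosolic enzymes on the left and mitochondrial enzymes on the right, the brightest probe set filled, the others open, and black ticks for the values after matching for RNA quality. Probe sets of CARS1, KARS1, LARS1, FARS2 and RARS2 spread the most, with KARS1 at 0.06 and 1.55.

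Genes of the stress response and of other steps of translation were read from lists. The GCN2 and ATF4 reference list, which was chosen with results on these arrays known, had 8 of 12 genes higher past 2-fold at each level, against 4.26% and 8.04% of all genes. Its median change was 1.69 and 2.17 log2 units, and limma called 8 risen and 2 fallen, against 10.8% and 11.4% of all genes. After matching for quality 7 of the 12 were higher past 2-fold at each level, against 2.79% and 5.81%. DDIT3, which encodes the stress transcription factor CHOP, changed by 5.28 and 5.80, and TRIB3, a pseudokinase of the same response, by 4.96 and 5.64. The 2 that fell were EIF2AK4, which encodes GCN2 itself, with changes of -0.88 and -1.34, and IMPACT, an inhibitor of GCN2 activation, with -1.08 and -1.18. After matching, EIF2AK4 stood at -0.42 and -0.94, not past 2-fold at either level, and IMPACT at -0.94 and -1.05.

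Of 12 genes read for mitochondrial translation and tRNA amidation or formylation, 1 was higher at each level, 1 was lower at 10 µM, and the medians were 0.69 and 0.72. Among all genes 4.26% and 8.04% were higher past 2-fold at the 2 levels, and 8.46% were lower at 10 µM. QRSL1, a subunit of the enzyme that makes mitochondrial glutaminyl-tRNA, rose with changes of 1.36 and 1.77 (1.28 at 10 µM after matching for quality), as did the elongation factor gene TUFM and the release factor gene MTRF1L. GFM1, for another mitochondrial elongation factor, fell with -0.98 and -1.06, which were -0.55 and -0.69 after matching. Among 10 cytosolic translation factors 1 was higher past 2-fold at each level, against the same shares of all genes, with medians of 0.39 and 0.43. For these factors limma called EIF2S2, EEF1D and EIF4G1 risen and EIF4E fallen, against 10.8% and 11.4% of all genes. EIF2S2, the beta subunit of eIF2, changed by 1.79 and 2.03, and by 1.21 at 10 µM after matching, and EEF1D, an exchange factor for elongation, by 0.89 and 0.96, and by 0.34 at 10 µM after matching.

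Of 11 genes for tRNA processing and export none was past 2-fold, the medians were 0.13 and 0.01, and SSB, the La protein, was called fallen. The widest changes at 10 µM were 0.93 in RTCB, the tRNA ligase, and 0.87 in RPP30, a subunit of RNase P, and neither passed the limma test. The scaffold AIMP1, the only scaffold read, was at 0.09 and 0.20, and at -0.43 and -0.24 after matching, which turns its direction. Because WARS1 also responds to interferon-gamma, a short list for that response was read, of which 3 of 6 genes were measured. IRF1, its transcription factor, rose with changes of 2.51 and 3.20, and GBP1, a guanylate-binding protein, fell with -1.81 and -2.71.

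Twist and the identity of the lines were checked on the same arrays. TWIST1 read 11.57, 11.96 and 11.35 in the Twist line and 10.70, 10.51 and 10.48 in the control line. All 5 epithelial markers were lower past 2-fold in the Twist line under DMSO, with CDH1, EPCAM and KRT5 at the floor, and 4 of 5 mesenchymal markers were higher. Of markers of other cell types, PTPRC and CD3E (blood), CDH5 and VWF (endothelium) and ADIPOQ and PLIN1 (fat) were at the floor on every array, CD14 read at most 4.81, and PECAM1 read 7.20 to 7.64 in the Twist line against 3.80 to 4.05 and FABP4 10.62 to 11.00 against 7.77 to 8.18. No marker of these lists was past 2-fold with Cmp302 in the Twist line.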

How the data were processed

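RNA of 6 HMLE samples was measured on Affymetrix U133 Plus arrays, 1 per group. The labels name no unit, and the deposited values were taken as log2 signals from their range. The submitters' processing notes name GCOS 1.2 (per the labels), while background correction, summarisation and normalisation are not given in the sources used here. Each array was shifted to a median log2 ratio of 0 to the mean array over its brighter probe sets, and signals under a floor (the 50th percentile, 3.71) were set to it. Each gene was read by its brightest probe set with a single symbol, so controls (62) and probe sets with several symbols (1801) or none (11721) were left out.

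The 2-fold threshold was applied to genes above the floor on either array of a pair, without a test. Tests were made with limma (version 3.58.1, R 4.3.3), with a trend in eBayes and p-values adjusted by Benjamini-Hochberg over the genes exceeding the floor on 2 arrays or more, at 0.05. The lines were compared with the treatment as a factor, and the trends in a model of line, level and their interaction. The fits were tested on simulated data.

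The members and lists were chosen with earlier results of these data known. Named in full were members past 2-fold at both levels in the Twist line, the 4 of each class with the widest change at 10 µM, the 2 of each class with the widest difference between lines under DMSO, and of each other list the 2 with the widest change. CARS1, AARS2, IARS2 and other genes named for a limma call or for their probe sets were singled out after their values were seen. Alternatives were the deposited scaling, quantile normalization, other floors (35th and 65th percentiles), medians over probe sets, no filter and another coding of the levels. Others were quality matching, the highest control-line array as baseline, and omission of arrays. A further alternative passed over probe sets with the suffix _x_at or _s_at where the gene had another. Genes with only such probe sets, among them EPRS1 and GARS1, kept the same probe set there, so that alternative could not move their signals. Promoters came from RefSeq, GRCh38.p14.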

Additional observations from a re-analysis of the deposited data

Results flagged for a closer look

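GBP1, from the interferon-gamma list, had a trend per level that differed between the lines by -1.38 log2 units in the limma interaction test (adjusted p = 0.048). The call was lost when any 1 array other than the Twist array at 5 µM was left out (limma adjusted p from 0.053 to 0.56), when no gene on the whole array was called, and by the median over probe sets (-0.36, limma adjusted p = 0.10), with the deposited scaling, with the higher floor and with no filter. Its signals were 10.78, 8.97 and 8.07 in the Twist line at DMSO, 5 µM and 10 µM, and 9.42, 9.55 and 9.46 in the control line. WARS1, the synthetase that responds to interferon-gamma, and IRF1 had differences of the opposite sign.

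The median change of the mitochondrial enzymes at 10 µM was 0.41 log2 units higher in the Twist line than in the control line, with 0.28 against -0.12. The medians took opposite signs in the lines at both levels, which was the rule for the flag, and this difference was not tested. At 10 µM the cytosolic medians, 0.65 and 0.02, lay further apart but shared a sign. The Twist DMSO array and the control-line array at 10 µM had the highest quality contrasts, 0.96 and 0.84. After matching for quality the mitochondrial median in the Twist line at 10 µM was 0.23. The part of the contrast in this difference was not tested.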

How the results depend on the processing

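Of 202 counts and class medians recomputed under the alternatives 38 moved, and 84 recomputed values of single genes lost their call. Counts of cytosolic enzymes past 2-fold in the Twist line moved from 5 to 3 at 5 µM with quality matching, and to 1 at 5 µM and 2 at 10 µM against the highest control-line array. The difference of class medians at 5 µM moved from 0.42 to 0.12 and 0.15 log2 units under these settings. With probe sets ending in _x_at or _s_at passed over where the gene had another, 1 mitochondrial enzyme was higher at each level and 2 had a rising Twist trend. With no filter on low signals, limma called no member in the Twist trend in either class and 0 higher between the lines. With the levels coded 0, 1 and 1 it called 2 mitochondrial enzymes risen (HARS2 and WARS2, not PARS2) and 0 fallen, and 10 members in the difference of trends, against 26.5% of all genes, where the floor at the 35th percentile gave 1 (WARS1). Leaving out each array in turn gave 0 to 8 cytosolic and 0 to 3 mitochondrial enzymes with a rising Twist trend, 0 falling, and 0 to 7 members in the difference of trends. Between the lines, leaving out the DMSO, 5 µM or 10 µM pair gave 11, 0 and 0 members higher, and leaving out the 5 µM pair gave 1 lower. The cause of these changes was not tested. Settings that leave out arrays have fewer residual degrees of freedom, and the setting with no filter tests more genes. The test between the lines pairs arrays by treatment; no pairing by replicate exists, since each group has 1 array and the labels give no replicate numbers. The 2 residual degrees of freedom and the unequal RNA quality limit these results, and signals at the floor are bounds.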
